A study of Mus musculus with 28 samples.

Results

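The comparison described here set 2 libraries of cells that received the p38 inhibitor during induction (p38i) against 2 libraries of cells that had received it before induction (pre-p38i), all harvested on day 1 of induction. These 4 libraries were chosen by their labels, out of the 28 RNA-seq libraries of the series, and no measured value entered the choice. All cells were wild-type mouse embryonic fibroblasts (MEFs) that per the study carried the OG2 reporter, in which GFP is driven by Oct4, and that were given retroviral Oct4, Sox2 and Klf4 and then moved to the chemically defined induction medium iCD1. In p38i the inhibitor, SB203580, was in the medium during induction. In pre-p38i it was in the medium of the MEFs before induction and was absent afterwards, so the arms differ both in the exposure of the MEFs and in the medium of day 1. For context, 2 DMSO libraries of day 1 (the control induction), 2 libraries of untreated MEFs, 2 of p38i-treated MEFs and 12 libraries of both arms on days 3, 5 and 7 were used. The labels give no separate animals or cultures for the 2 libraries of a group, so p-values measure the spread between libraries, which may be technical.

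The p38 kinases are stress-activated MAP kinases that signal through downstream kinases such as MK2 and through transcription factors, and they are switched on by cytokines, DNA damage, osmotic and oxidative stress. SB203580 competes with ATP in the α and β isoforms and blocks their activity without a need for any change in their mRNA. In reprogramming, the first days are the time when fibroblast genes are shut down and epithelial genes begin to appear, ahead of the pluripotency genes.

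Each library holds whole-number values with nearly equal totals, read here as TPM (transcripts scaled to a fixed total) rounded down, which is an inference from those totals. The number of reads behind them is unknown, so no counting error can be given. Between 12934 and 13444 genes had a value of at least 1 in the 6 libraries of day 1, mitochondrial genes took 3.06% to 3.92% of a library, and the 10 highest genes at most 7.59%. Values were compared with limma on the log2(value + 1) scale, which understates the fold change of genes with low values. Over the 13230 genes tested, replicate libraries had a root mean square log2 difference of 0.348 in p38i and 0.365 in pre-p38i. It was 0.476 between the means of the 2 arms, 0.387 between p38i and DMSO, and 0.373 between pre-p38i and DMSO.

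All 12 fibroblast markers listed were detected, with sums of 7628 and 7744 in p38i and 6839 and 7286 in pre-p38i. Of these, p38i had 2 markers called higher (8.25% of all genes tested were), Vim and Col1a1. Another 6 were called lower (19.9%), Col3a1, Lum, Pdgfra and Prrx1 among them. The median log2 fold change was -0.38. Vim, the intermediate filament protein of mesenchymal cells, made up most of each sum, at 4853 and 4956 in p38i and 3859 and 4188 in pre-p38i. Its call was lost with quantile normalization and with only the 4 libraries compared. All 8 blood cell markers were listed at 0 in the 4 libraries. The endothelial markers Pecam1 and Tie1 were listed at 0, and 2 of the 4 endothelial markers tested were lower in p38i.

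On day 1, 3729 genes, or 28.2% of the genes tested, differed between p38i and pre-p38i (adjusted p under 0.05, limma with Benjamini-Hochberg adjustment over all genes tested; such genes are said below to be called). Of these, 1091 were higher in p38i (8.25% of the genes tested) and 2638 were lower (19.9%). These shares are the base for the day 1 counts of every gene list. The differences were mostly small. The median log2 fold change was 0.46 over the higher and -0.50 over the lower genes, and the median over all genes tested was -0.08. A difference of 1 or more on the log2 scale was reached by 150 higher and 454 lower genes, and one of 2 or more by 20 higher and 35 lower genes. With quantile normalization in place of the authors' scaling, 1428 of the called genes were higher and 1784 lower, a more even split. All 4 values of a gene fell into 2 separate groups for 3710 of the genes called and for 7080 of all 13230 genes tested. With only the 4 libraries compared in the fit, which leaves 2 residual degrees of freedom per gene, 1838 genes were called. The counts of called genes fell in most of the lists described here, for ATF4 genes to 17 higher and for mitosis genes to 8 lower. Some counts did not fall, such as the 3 lower reprogramming factors and the 6 lower fibroblast markers.

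**Figure D1:**
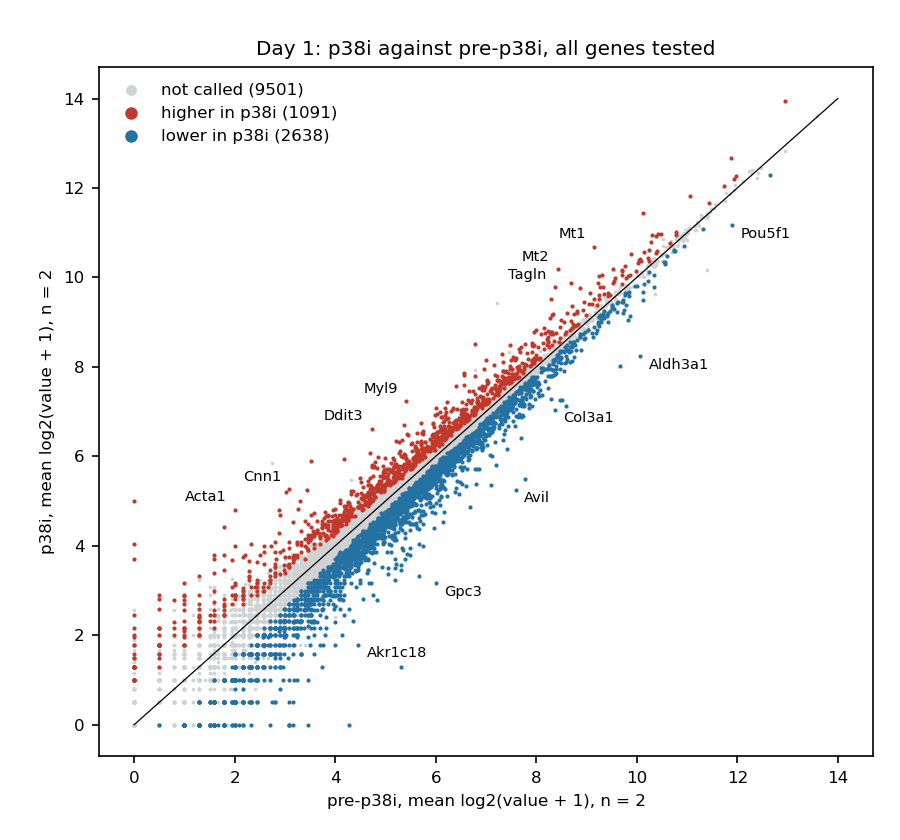
Mean log2(value + 1) of the 2 p38i libraries (vertical axis) against that of the 2 pre-p38i libraries (horizontal axis) on day 1, 1 point per gene tested, with the 1091 genes called higher in p38i in red, the 2638 called lower in blue and the others in grey. The line marks equal values, and most coloured points lie close to it, with Acta1, Mt1 and Mt2 above and Gpc3, Avil and Aldh3a1 below.

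The genes that stood highest in p38i over pre-p38i included contractile, cornified envelope and stress response genes. Acta1 (ENSMUSG00000031972, chromosome 8 of GRCm38, 123891769 to 123894751), which encodes the actin of skeletal muscle, had values of 28 and 26 in p38i and 3 and 3 in pre-p38i, with 33 and 33 in DMSO. The p38i mean was 9.00 times the pre-p38i mean, and the log2 fold change was 2.81 (SE 0.32, adjusted p = 1.7e-06). Both p38i libraries lay with the DMSO libraries, and the pre-p38i libraries stood apart below.

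Lce1h and Crct1 lie within the epidermal gene cluster of chromosome 3 and encode proteins of the cornified layer of skin. Lce1h was 21 and 20 in p38i, 2 and 3 in pre-p38i and 16 and 13 in DMSO (log2 fold change 2.63, SE 0.26, adjusted p = 2.3e-07). Crct1 was 62 and 55 in p38i, 10 and 11 in pre-p38i and 57 and 47 in DMSO (2.37, SE 0.33, adjusted p = 2.3e-05). Lce1g was 12 and 12 in p38i and was listed at 0 in both pre-p38i libraries, with 3 and 5 in DMSO. Again the DMSO libraries were nearer to p38i for Lce1h and Crct1, while for Lce1g they lay between the arms. The list of epidermal genes, which does not hold Lce1g or Lce1h, did not rise as a whole. Of 18 tested, 2 were higher (8.25% of all genes tested were), Crct1 and Sprr1a, and 5 lower (19.9%), with a median of -0.18. The 5 lower ones were Tgm3 and 4 of the 5 keratins of stratified epithelium tested. Krt13, 1 of them, was 16 and 17 in p38i, 35 and 35 in pre-p38i and 35 and 29 in DMSO. With only the 4 libraries compared, 2 genes of the list were lower.

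Il1rl1, the receptor of interleukin 33, was 24 and 30 in p38i, 10 and 4 in pre-p38i and 28 and 28 in DMSO (1.91, SE 0.33, adjusted p = 2.3e-04). This call was lost when only the 4 libraries compared were fitted. Aldh1l2, a mitochondrial enzyme of folate metabolism, was 12 and 14 in p38i, 2 and 2 in pre-p38i and 6 and 6 in DMSO (2.22, SE 0.24, adjusted p = 7.8e-07).

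The gene with the highest fitted fold change, Pagr1a, cannot be read as a difference between the arms. It had values of 28 and 34 in p38i and was listed at 0 in pre-p38i, but its exons overlap those of the same-strand gene Gm42742 over 1412 bases. Gm42742 had 5 and 0 in p38i and 38 and 39 in pre-p38i, and the sums of both genes were 33 and 34 in p38i, 38 and 39 in pre-p38i and 30 and 32 in DMSO. The Pagr1a call was lost without each of the 4 libraries in turn. Lilrb4a, at 9 and 16 against 2 and 2, has near-identical copies and is uncertain too. Among the 14 genes named as rises were also Cnn1, Tmem151a, Mt3, Ddit3 and Myl9, and 2 genes with provisional names were passed over.

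**Figure D2:**
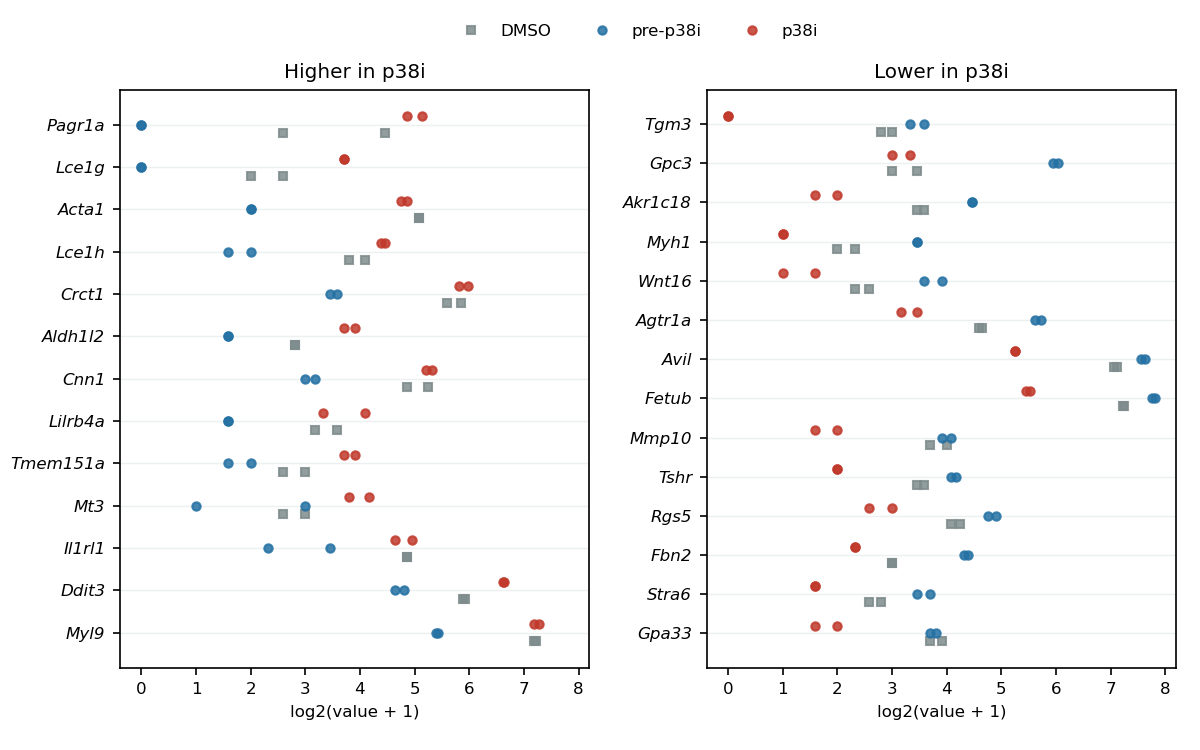
Log2(value + 1) on day 1 (horizontal axis) of genes named as higher (left) and the 14 named as lower in p38i (right), 1 point per library, 2 libraries a group. In no row do the red p38i points overlap the blue pre-p38i points, and the grey DMSO squares sit beside p38i for Acta1, Crct1, Myl9 and Gpc3, beside pre-p38i for Mmp10 and Gpa33, and between the arms for Ddit3 and Agtr1a.

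Of the 14 genes named as falls, 9 were listed at 0 in both untreated MEF libraries and 12 rose from MEFs to DMSO day 1, against 2 and 3 of the 14 named as rises. Tgm3 (chromosome 2, 130012349 to 130050399), a transglutaminase that cross-links proteins in skin, was listed at 0 in both p38i libraries and had 9 and 11 in pre-p38i and 7 and 6 in DMSO. Avil (chromosome 10, 127000709 to 127020994), an actin-severing protein of the gelsolin family, was 37 and 37 in p38i, 188 and 197 in pre-p38i and 138 and 132 in DMSO (log2 fold change -2.35, SE 0.05, adjusted p = 3.8e-16). Its exons overlap those of Tsfm on the other strand over 165 bases, and the sources used here do not say whether reads were counted by strand. Fetub (chromosome 16, 22918382 to 22939766), a secreted protease inhibitor of the fetuin family, was 45 and 43 in p38i, 223 and 216 in pre-p38i and 150 and 148 in DMSO (-2.29, SE 0.06, adjusted p = 5.0e-15). For each of these the order was p38i, DMSO, pre-p38i, with no overlap between groups.

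Receptors and signalling proteins were among the other falls. Agtr1a, the type 1 angiotensin receptor, was 8 and 10 in p38i, 52 and 48 in pre-p38i and 23 and 24 in DMSO (-2.36, SE 0.11, adjusted p = 1.5e-11). Tshr, the receptor of thyrotropin, was 3 and 3 in p38i, 16 and 17 in pre-p38i and 10 and 11 in DMSO (-2.13, SE 0.19, adjusted p = 6.8e-08). Rgs5, a regulator of G protein signalling known from pericytes, was 5 and 7 in p38i, 26 and 29 in pre-p38i and 18 and 16 in DMSO. All 3 were listed at 0 in the MEF libraries with and without inhibitor. Akr1c18, which inactivates progesterone, was 3 and 2 in p38i, 21 and 21 in pre-p38i and 10 and 11 in DMSO (-2.67, SE 0.15, adjusted p = 1.5e-10). Myh1, Wnt16, Stra6 and Gpa33 were further falls that were low in MEFs, and the call of Wnt16 was lost with a pseudocount of 0.1.

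Genes absent from MEFs that appear with induction were counted separately. There were 184 genes tested that were listed at 0 in both untreated MEF libraries and had a mean of at least 5 in DMSO on day 1. Of these, 107 (58.2%) were lower in p38i, 9 were higher and 68 were not called, with a median log2 fold change of -0.72. Of all genes tested, 19.9% were lower and 8.25% higher in p38i, with a median of -0.08. Of the 2638 genes lower in p38i, 1490 (56.5%) rose from MEFs to DMSO day 1, where 36.6% of all genes tested rose and 18.9% fell. Of the 1091 genes higher in p38i, 513 (47.0%) rose and 270 (24.7%) fell, both also above the shares of all genes tested. Aldh3a1 (chromosome 11, 61207537 to 61218421), an aldehyde dehydrogenase that the aryl hydrocarbon receptor induces, was 298 and 306 in p38i, 1046 and 1096 in pre-p38i and 836 and 775 in DMSO (-1.82, SE 0.05, adjusted p = 7.0e-15), and was listed at 0 in MEFs with and without the inhibitor. Of 5 genes tested of that receptor's pathway, 3 were lower, Aldh3a1, Arnt and Tiparp.

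The metallothioneins gave some of the most precise differences. Metallothioneins are small cysteine-rich proteins that bind zinc and copper, and their genes are switched on by the zinc-sensing factor MTF1 through metal response elements. Mt2 (chromosome 8, 94172664 to 94173568) was 1137 and 1183 in p38i, 332 and 357 in pre-p38i and 387 and 358 in DMSO. Mt1 (chromosome 8, 94179082 to 94180327) was 1639 and 1653 in p38i, 579 and 555 in pre-p38i and 614 and 652 in DMSO. Both p38i libraries lay above the 4 others for both genes, and the values of pre-p38i and DMSO were close to each other. The log2 fold changes were 1.75 for Mt2 (SE 0.05, adjusted p = 7.2e-15) and 1.54 for Mt1 (SE 0.06, adjusted p = 9.9e-13). In MEFs, Mt2 was 101 and 109 without and 229 and 209 with the inhibitor, and Mt1 was 219 and 258 without and 520 and 525 with it, and both were called higher in p38i-treated MEFs.

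Mt3 was 17 and 13 in p38i and 1 and 7 in pre-p38i, with 7 and 5 in DMSO, and its call was lost without p38i replicate 1 and without pre-p38i replicate 1. Of the 10 genes of the metal response list tested, 4 were higher (8.25% of all genes tested were) and 2 lower (19.9%) in p38i. The zinc importers Slc39a10 (18 and 18 in p38i, 34 and 34 in pre-p38i) and Slc39a14 (60 and 66 against 77 and 76) were the lower ones. The promoters of Mt2 and Mt1 are shown because these genes rose together with little spread, from GRCm38.p6 in RefSeq, 5′ to 3′ on the strand of the gene, with metal response elements (TGCACNC or TGCGCNC, on either strand) in capitals.
Mt2 (chr8:94172383-94172586, plus strand): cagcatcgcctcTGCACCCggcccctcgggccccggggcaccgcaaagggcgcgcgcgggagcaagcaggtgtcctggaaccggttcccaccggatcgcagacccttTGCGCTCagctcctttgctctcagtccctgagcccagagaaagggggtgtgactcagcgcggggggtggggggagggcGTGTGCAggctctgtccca
Mt1 (chr8:94179054-94179084, plus strand): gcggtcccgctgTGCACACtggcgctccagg
The 250 bases before the start hold 3 such elements for Mt2 and 1 for Mt1. All 4 metallothionein promoters had at least 1, but so did 25.7% of all promoters in the table and 35.6% of those of genes tested. These matches are a description of the letters only.

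Genes of the integrated stress response were higher in p38i. In this response the factor ATF4, made when translation slows, raises genes for amino acid synthesis, amino acid transport, tRNA charging and stress control. Of the 45 ATF4 response genes tested, 29 were higher in p38i (8.25% of all genes tested were) and 4 lower (19.9%). The other 12 were not called, and the median log2 fold change was 0.30. Ddit3 (CHOP, chromosome 10, 127290774 to 127296288), a stress factor downstream of ATF4, was 98 and 97 in p38i, 27 and 24 in pre-p38i and 60 and 58 in DMSO (1.90, SE 0.13, adjusted p = 1.5e-09). Trib3, a pseudokinase of the same pathway, was 7 and 6 in p38i, 1 and 0 in pre-p38i and 2 and 2 in DMSO. Chac1, which degrades glutathione, was 12 and 13 in p38i and 4 and 3 in pre-p38i. The values of all 3 genes were separate between the arms.

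Nupr1, a stress-induced chromatin protein, was 272 and 300 in p38i, 136 and 119 in pre-p38i and 258 and 266 in DMSO (1.16, SE 0.10, adjusted p = 3.6e-08). Atf4 itself was 206 and 200 in p38i and 162 and 156 in pre-p38i (0.35, SE 0.07, adjusted p = 5.3e-04). Phgdh, the first enzyme of serine synthesis, was 312 and 313 in p38i, 149 and 168 in pre-p38i and 207 and 221 in DMSO (0.98, SE 0.06, adjusted p = 6.4e-10). Among 12 tRNA synthetases, 9 were higher in p38i. The 4 lower genes were Ddit4, an inhibitor of mTORC1 (35 and 35 in p38i, 53 and 55 in pre-p38i), Cth, which makes cysteine, the tRNA synthetase Wars, and the amino acid transporter Slc1a4, whose call was lost under several alternatives. Against DMSO, 19 of the 45 genes were higher in p38i (3.47% of all genes tested were) and 2 lower (12.6%), while 1 was higher (5.40%) and 11 lower (6.24%) in pre-p38i. In MEFs treated with the inhibitor, 30 of the 45 were lower than in untreated MEFs and the other 15 not called, where 8.15% of all genes tested were lower and 9.73% higher.

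Promoters of 4 of these genes are shown because the ATF4 composite element (TGATGNAA, on either strand, in capitals) was found in them, each with the bases around it from GRCm38.p6 in RefSeq, 5′ to 3′ on the strand of the gene.
Chac1 (chr2:119351037-119351068, plus strand): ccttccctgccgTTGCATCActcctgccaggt
Nupr1 (chr7:126625561-126625592, minus strand): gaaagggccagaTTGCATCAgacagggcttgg
Slc7a11 (chr3:50443641-50443691, minus strand): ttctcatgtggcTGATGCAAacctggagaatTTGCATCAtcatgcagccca
Vldlr (chr19:27216808-27216839, plus strand): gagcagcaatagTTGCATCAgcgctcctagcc
The element was found in 34.1% of the 44 promoters of list members, in 3.97% of all promoters in the table and in 2.21% of those of genes tested. Of the members with a promoter in the table, 11 of 25 higher in p38i, 1 of 2 lower and 2 of 10 not called held it. The list holds genes known as ATF4 targets, so this share says nothing of the inhibitor.

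Lysosomal genes were higher in p38i as a group. Lysosomes degrade material with acid hydrolases, and many of their genes are under the factors TFEB and TFE3. Of 41 genes tested, 32 were higher in p38i (8.25% of all genes tested were) and 1 lower (19.9%). The median log2 fold change was 0.41. By role, 15 of 18 proteases and hydrolases, 7 of 7 tested subunits of the proton pump, 6 of 8 membrane proteins and 4 of the regulators were higher. Gpnmb, a membrane glycoprotein of melanosomes and lysosomes, was 99 and 108 in p38i, 42 and 39 in pre-p38i and 66 and 63 in DMSO (1.33, SE 0.08, adjusted p = 8.1e-10). Sqstm1, the autophagy receptor p62, was 873 and 869 in p38i, 457 and 480 in pre-p38i and 739 and 723 in DMSO (0.89, SE 0.04, adjusted p = 2.3e-11). Its exons overlap those of the low antisense gene Mrnip. The protease Ctsd was 1950 and 2010 in p38i, 1273 and 1266 in pre-p38i and 1621 and 1573 in DMSO (0.64, SE 0.04, adjusted p = 2.1e-10).

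DMSO lay between the arms for Gpnmb, Sqstm1 and Ctsd, and no values overlapped. Rragd, a GTPase of nutrient sensing at the lysosome, was 17 and 15 in p38i, 6 and 6 in pre-p38i and 8 and 7 in DMSO. Neu1, a sialidase, was 88 and 101 in p38i and 54 and 52 in pre-p38i. The lower gene was Tfe3 itself, with 46 and 49 in p38i and 69 and 77 in pre-p38i (-0.61, SE 0.08, adjusted p = 1.3e-05). Against DMSO, 27 of the 41 genes were higher in p38i (3.47% of all genes tested were) and 1 lower (12.6%). In pre-p38i, 21 were lower (6.24%) and the other 20 not called. The number of higher genes in p38i over pre-p38i was 28 to 30 when each library was left out in turn and 31 after quantile normalization.

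The letters TCACGTGA, an E-box that TFEB binds, are shown in capitals in 4 promoters of lysosomal genes that rose. This motif was added after the values had been seen.
Ctsd (chr7:142387907-142387938, minus strand): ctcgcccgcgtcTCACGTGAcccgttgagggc
Ctsa (chr2:164833748-164833772, plus strand): atgagcaaactgTCACGTGAtgcag
Gla (chrX:134601181-134601245, minus strand): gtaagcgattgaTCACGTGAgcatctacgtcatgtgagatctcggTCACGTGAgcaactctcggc
Mcoln1 (chr8:3500461-3500492, plus strand): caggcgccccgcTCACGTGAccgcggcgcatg
It was found in 15.4% of 39 promoters of the list, in 0.974% of all promoters in the table and in 1.86% of those of genes tested. Of the members with a promoter in the table, 6 of 24 higher in p38i and 0 of 7 not called held it. The list holds lysosomal genes, many of them under TFEB, so these shares say nothing of the inhibitor.

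Macrophage markers were higher in p38i than in pre-p38i as well, but not against DMSO. Of the 19 markers tested, 9 were higher in p38i (8.25% of all genes tested were) and 1 lower (19.9%). The median log2 fold change was 0.71. Sums over the list were 229 and 243 in p38i, 126 and 117 in pre-p38i and 332 and 317 in DMSO. They were 387 and 366 in MEFs and 255 and 257 in p38i-treated MEFs. Lyz2, lysozyme, was 90 and 90 in p38i, 46 and 38 in pre-p38i and 171 and 161 in DMSO (1.09, SE 0.10, adjusted p = 1.6e-07). Cd68, a lysosomal protein of macrophages, was 58 and 68 in p38i, 27 and 29 in pre-p38i and 37 and 32 in DMSO. Against DMSO, 1 of the 19 markers was higher in p38i (3.47% of all genes tested were) and 5 were lower (12.6%). On day 3, p38i against pre-p38i had 4 higher (10.7%) and 7 lower (31.4%). Csf1r, the receptor that macrophages need, was 1 and 2 in p38i and listed at 0 in pre-p38i, and it shares 873 bases with the antisense gene Hmgxb3. Marco was the lower marker, at 1 and 0 in p38i and 4 and 4 in pre-p38i. The defining markers Ptprc and Cd74 were listed at 0 in the 4 libraries. Without p38i replicate 2 the markers called higher were 5, and with only the 4 libraries compared they were 2. The part of macrophage RNA in the lysosomal result was not tested. In bulk libraries such as these, fewer cells of a type and less RNA per cell cannot be told apart.

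Contractile genes, which mark the stress fibres of fibroblasts and smooth muscle, were higher in p38i, with DMSO beside p38i. Of 25 tested, 12 were higher (8.25% of all genes tested were) and 1 lower (19.9%). The median log2 fold change was 0.14. Tagln, which encodes the actin-binding protein transgelin, was 872 and 883 in p38i, 334 and 325 in pre-p38i and 675 and 755 in DMSO (1.41, SE 0.13, adjusted p = 1.1e-07). It overlaps genes on the other strand, the longest overlap with a gene of mean 1. Acta2, smooth muscle actin, was 922 and 964 in p38i, 405 and 421 in pre-p38i and 841 and 901 in DMSO (1.19, SE 0.11, adjusted p = 8.8e-08). Myl9, a myosin light chain, was 144 and 155 in p38i, 41 and 42 in pre-p38i and 148 and 144 in DMSO (1.82, SE 0.25, adjusted p = 1.6e-05). Cnn1, calponin, was 36 and 39 in p38i, 8 and 7 in pre-p38i and 37 and 28 in DMSO. Tpm4 was the lower gene, at 499 and 492 in p38i and 601 and 597 in pre-p38i.

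Against DMSO, 14 of the 25 contractile genes were lower in pre-p38i (6.24% of all genes tested were) and 1 higher (5.40%). In p38i, 4 were lower (12.6%) and 21 not called. In the MEFs, Acta1 was 176 and 180 without and 43 and 46 with the inhibitor, Cnn1 was 205 and 200 without and 140 and 162 with it, and Tagln was 3238 and 3195 without and 3640 and 3762 with it. Of the 25 genes, 2 were higher (9.73% of all genes tested were) and 7 lower (8.15%) in p38i-treated MEFs. Among Acta1, Cnn1 and Tagln only Acta1 was called there, lower. The list labelled YAP and SRF targets, factors that respond to the actin skeleton, held 5 CCN matricellular genes and 12 YAP/TEAD targets. It did not go the same way as the contractile genes. Of 17 tested, 2 were higher in p38i (8.25% of all genes tested were) and 7 lower (19.9%), with a median of -0.19. After quantile normalization 4 were lower. The higher ones were Axl and Ankrd1, which was 15 and 16 in p38i, 4 and 4 in pre-p38i and 21 and 21 in DMSO (1.72, SE 0.19, adjusted p = 1.1e-06). The promoters of Acta1 and Myl9 are shown because they held a CArG box, the site of SRF, in capitals.
Acta1 (chr8:123894827-123894860, minus strand): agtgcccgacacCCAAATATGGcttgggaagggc
Myl9 (chr2:156775291-156775324, plus strand): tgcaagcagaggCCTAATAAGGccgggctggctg
A CArG box was found in 25.0% of 24 promoters of the list, in 1.63% of all promoters in the table and in 1.34% of those of genes tested. Of the members with a promoter in the table, 2 of 10 higher in p38i and 3 of 8 not called held one.

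Genes of cholesterol and fatty acid synthesis were higher in p38i, and here pre-p38i lay with DMSO. Of 36 tested, 16 were higher (8.25% of all genes tested were) and 4 lower (19.9%). The median log2 fold change was 0.22. Lss, which closes the sterol ring, was 107 and 112 in p38i, 69 and 73 in pre-p38i and 63 and 61 in DMSO (0.62, SE 0.08, adjusted p = 1.2e-05). Insig1, a sterol sensor, was 181 and 186 in p38i, 116 and 116 in pre-p38i and 107 and 97 in DMSO (0.66, SE 0.08, adjusted p = 4.3e-06). Fasn, fatty acid synthase, was 300 and 286 in p38i, 196 and 189 in pre-p38i and 196 and 191 in DMSO. Values did not overlap between the arms for these genes. Dhcr7 rose as well (99 and 101 in p38i, 62 and 61 in pre-p38i), but shares near-identical stretches with several genes.

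The 4 lower genes included Srebf1, a master regulator of the pathway (78 and 80 in p38i, 99 and 103 in pre-p38i), whose call held under the 11 alternatives. Its partner Srebf2 (107 and 114 against 126 and 128) was among the 4 too, but its call was lost under 9 of the 11, including each library left out. Only 2 of the 4 were called without p38i replicate 2, and 2 without pre-p38i replicate 2. Against DMSO, 23 of the 36 genes were higher in p38i (3.47% of all genes tested were) and 6 in pre-p38i (5.40%), and the others were not called.

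Some genes that were higher in pre-p38i were already high in the p38i-treated MEFs. Gpc3 (chromosome X, 52272426 to 52613950), a glypican that restrains growth of the embryo, was 7 and 9 in p38i, 61 and 65 in pre-p38i and 10 and 7 in DMSO on day 1, against 21 and 19 in untreated and 111 and 98 in p38i-treated MEFs. The pre-p38i mean was 7.88 times the p38i mean (log2 fold change -2.84, SE 0.22, adjusted p = 1.3e-08). H19 (chromosome 7, 142575529 to 142578143), an imprinted non-coding RNA, was 143 and 135 in p38i, 384 and 386 in pre-p38i and 184 and 175 in DMSO (-1.46, SE 0.07, adjusted p = 1.6e-11). In MEFs it was 1540 and 1497 without and 3077 and 2960 with the inhibitor. Fbn2, which encodes fibrillin 2 of elastic fibres, was 4 and 4 in p38i, 19 and 20 in pre-p38i and 7 and 7 in DMSO, with 12 and 12 in untreated and 24 and 23 in treated MEFs. For these genes p38i and DMSO lay near each other on day 1 and pre-p38i stood above them.

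Of 19 imprinted growth genes tested, 7 were lower in p38i than in pre-p38i (19.9% of all genes tested were) and 2 higher (8.25%). The median was -0.22. In p38i-treated MEFs 7 were higher than in untreated MEFs (9.73% of all genes tested were) and 1 lower (8.15%). Dlk1, a Notch-like inhibitor of fat cell formation, was 13 and 16 in p38i, 34 and 45 in pre-p38i and 13 and 13 in DMSO, with 74 and 78 in untreated and 182 and 179 in treated MEFs. Igf2, insulin-like growth factor 2, was 711 and 741 in p38i, 1097 and 1119 in pre-p38i and 714 and 703 in DMSO, with 1888 and 1790 in untreated and 2803 and 2750 in treated MEFs. Mest and Nnat were lower in p38i too, and Rian and Igf2r were the 2 higher ones. Mest overlaps the antisense gene Copg2.

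**Figure D3:**
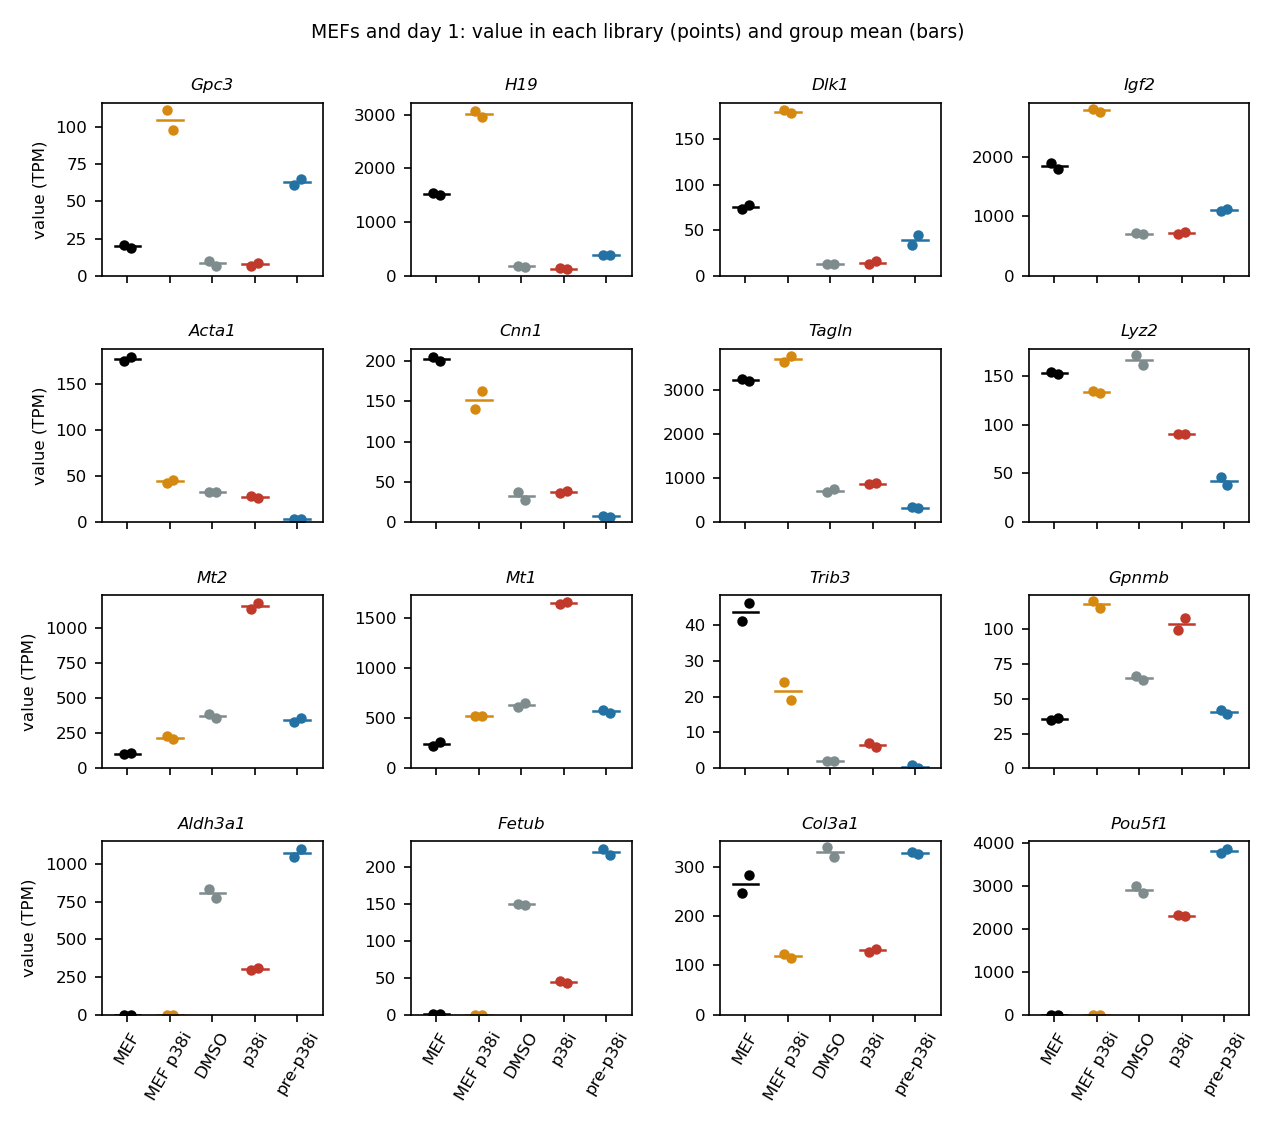
Values (TPM, linear axes from 0) of 16 genes in untreated MEFs, p38i-treated MEFs and the DMSO, p38i and pre-p38i cells of day 1, with 1 point per library, 2 libraries a group, and a bar at each group mean. Gpc3, H19, Dlk1 and Igf2 are high in p38i-treated MEFs and, on day 1, highest in pre-p38i, while Mt1 and Mt2 are highest in p38i, and Aldh3a1, Fetub and Pou5f1 appear on day 1 in the order p38i, DMSO, pre-p38i.

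Wnt pathway genes followed in part. Of 23 tested, 10 were lower in p38i (19.9% of all genes tested were) and 1 higher (8.25%), with a median of -0.30. Without pre-p38i replicate 1 the number of lower genes was 6. Lef1, a nuclear effector of Wnt, was 3 and 3 in p38i, 12 and 14 in pre-p38i and 5 and 6 in DMSO (-1.80, SE 0.17, adjusted p = 1.3e-07). Dkk3, a secreted modulator, was 8 and 7 in p38i, 17 and 15 in pre-p38i and 9 and 8 in DMSO, with 42 and 45 in untreated and 123 and 119 in treated MEFs. In p38i-treated MEFs 9 of the 23 were higher (9.73% of all genes tested were) and 2 lower (8.15%). Lef1 was not among these, with 4 and 3 in untreated and 3 and 2 in treated MEFs. Of 9 glypicans and syndecans, 4 were lower in p38i and 5 not called, Sdc2 with 242 and 237 against 378 and 369.

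Over all genes, 445 of the 2638 genes lower in p38i than in pre-p38i (16.9%) were also higher in p38i-treated than in untreated MEFs. They were 34.6% of the 1287 genes higher there, where 19.9% of all genes tested were lower in p38i on day 1. Another 259 (9.82%) were lower in treated MEFs. Of the 1091 genes higher in p38i, 228 (20.9%) were lower in treated MEFs and 163 (14.9%) higher. Of all genes tested, 9.73% were higher and 8.15% lower in treated MEFs. The libraries of the 2 comparisons are separate.

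Matrix proteases were lower in p38i more often than higher, and matrix genes went both ways. Of 17 metalloproteinases and their inhibitors tested, 8 were lower (19.9% of all genes tested were) and 3 higher (8.25%). The median was -0.50. Of the 14 proteases among them, 7 were lower and 1 higher, with sums of 383 and 385 in p38i and 578 and 585 in pre-p38i. Mmp3, stromelysin, was 10 and 12 in p38i, 38 and 39 in pre-p38i and 27 and 37 in DMSO (-1.72, SE 0.24, adjusted p = 2.3e-05). Mmp10, a related stromelysin, was 2 and 3 in p38i, 14 and 16 in pre-p38i and 15 and 12 in DMSO (-2.20, SE 0.21, adjusted p = 1.5e-07). Mmp2, gelatinase A, was 71 and 73 in p38i, 117 and 123 in pre-p38i and 108 and 101 in DMSO. The higher genes were Mmp12 and the inhibitors Timp1, at 1526 and 1507 against 1130 and 1120, and Timp2, at 876 and 885 against 638 and 654. The promoters of Mmp10 and Mmp3 are shown because both held an AP-1 site (TGANTCA, in capitals) close to the start.
Mmp10 (chr9:7502267-7502297, plus strand): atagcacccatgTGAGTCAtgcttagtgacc
Mmp3 (chr9:7445764-7445794, plus strand): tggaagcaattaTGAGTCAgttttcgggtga
The site was found in 26.7% of 15 promoters of the list, 7.81% of all promoters in the table and 5.27% of those of genes tested. Of the members with a promoter in the table, 2 of 5 lower in p38i held it. So did 1 of 3 higher ones, Mmp12, and 1 of 4 not called, Mmp13.

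Of 43 collagen and matrix genes, 15 were lower (19.9% of all genes tested were) and 10 higher (8.25%) in p38i. The median was -0.12. Their summed values were higher in p38i, at 11701 and 11817 against 10523 and 10904 in pre-p38i. Col3a1, a fibril collagen, was 127 and 134 in p38i, 331 and 327 in pre-p38i and 341 and 320 in DMSO (-1.33, SE 0.08, adjusted p = 2.7e-10). Col1a1, the main fibril collagen of fibroblasts, went the other way, with 969 and 981 in p38i, 717 and 773 in pre-p38i and 1392 and 1318 in DMSO (0.39, SE 0.08, adjusted p = 0.00155). DMSO was highest for Col1a1 and lay with pre-p38i for Col3a1. Against DMSO, 31 of the 43 genes were lower in p38i (12.6% of all genes tested were) and 12 not called. In pre-p38i, 21 were lower (6.24%) and 2 higher (5.40%).

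Of 34 TGF-β and BMP pathway genes, 14 were lower (19.9% of all genes tested were) and 4 higher (8.25%) in p38i. The median was -0.28. Tgfbi, an adhesion protein induced by TGF-β, was 9 and 11 in p38i, 34 and 44 in pre-p38i and 34 and 29 in DMSO (-1.86, SE 0.16, adjusted p = 5.1e-08). Fst, follistatin, an activin antagonist, was 151 and 155 in p38i, 368 and 364 in pre-p38i and 375 and 361 in DMSO (-1.25, SE 0.09, adjusted p = 2.1e-09). Grem1, a BMP antagonist, was 362 and 352 in p38i, 176 and 176 in pre-p38i and 367 and 358 in DMSO (1.02, SE 0.05, adjusted p = 2.3e-11). Both lower genes had pre-p38i beside DMSO, while Grem1 had p38i beside DMSO.

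Of the 4 p38 isoforms, the inhibitor blocks α and β, and the mRNA of neither was called. Mapk14 (p38α) was 51 and 55 in p38i and 51 and 55 in pre-p38i (log2 fold change 0.00, SE 0.07, adjusted p = 1). Mapk13 (p38δ) was 37 and 39 in p38i, 24 and 27 in pre-p38i and 40 and 35 in DMSO (0.56, SE 0.17, adjusted p = 0.0177), and this call was lost without either p38i library and without pre-p38i replicate 1. Mapk11 (p38β) and Mapk12 (p38γ) had values of at most 7 and were not called. Of 32 p38 pathway genes tested, 9 were lower (19.9% of all genes tested were) and 4 higher (8.25%), with a median of -0.15. With only the 4 libraries compared, 2 were lower and 1 higher. Without p38i replicate 1 the higher ones were 2. Zfp36l1, an RNA-decay factor, was 24 and 20 in p38i, 44 and 52 in pre-p38i and 35 and 35 in DMSO (-1.09, SE 0.10, adjusted p = 5.9e-08). Gadd45a, a stress protein that can activate p38, was 93 and 89 in p38i, 54 and 50 in pre-p38i and 70 and 68 in DMSO (0.80, SE 0.08, adjusted p = 6.5e-07).

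Of 19 feedback genes of the MAP kinases, 10 were lower (19.9% of all genes tested were) and 3 higher (8.25%) in p38i. The median was -0.31. Among 10 dual-specificity phosphatases, which act on ERK, JNK or p38, 3 were higher and 2 lower. Of the Sprouty and Spred inhibitors 5 of 6, and of the ERK-responsive ETS factors 3 of 3, were lower. Spry1, an inhibitor of receptor signalling, was 5 and 4 in p38i, 11 and 10 in pre-p38i and 6 and 8 in DMSO (-1.07, SE 0.15, adjusted p = 1.5e-05). Dusp6, the phosphatase of ERK, was 29 and 31 in p38i, 47 and 46 in pre-p38i and 31 and 36 in DMSO (-0.62, SE 0.08, adjusted p = 1.5e-05). The factors Etv4 (47 and 49 against 76 and 74) and Etv5 (39 and 41 against 61 and 59) were lower as well. Dusp5 was higher, with 33 and 35 in p38i and 18 and 23 in pre-p38i. Among 24 AP-1 and immediate-early genes 6 were higher (8.25% of all genes tested were) and 6 lower (19.9%). Jund was among the higher ones (146 and 149 against 94 and 89) and Fos among the lower ones (6 and 5 against 10 and 11). The higher ones were 2 without p38i replicate 1 and 3 without pre-p38i replicate 1, and the lower ones 3 without p38i replicate 2.

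The 3 reprogramming factors were lower in p38i. Their values hold the retroviral transgene and the endogenous gene together, since there is 1 value per gene. Pou5f1, which encodes Oct4, was 2314 and 2295 in p38i, 3768 and 3846 in pre-p38i and 2996 and 2822 in DMSO (-0.72, SE 0.05, adjusted p = 6.6e-10). Klf4 was 635 and 605 in p38i, 870 and 847 in pre-p38i and 777 and 697 in DMSO (-0.47, SE 0.08, adjusted p = 2.5e-04). Sox2 was 905 and 855 in p38i, 1256 and 1327 in pre-p38i and 1075 and 975 in DMSO (-0.55, SE 0.18, adjusted p = 0.0274). The order p38i, DMSO, pre-p38i held for all 3 with no overlap. The Sox2 call was lost without any 1 of the 4 libraries, without the filter on low values and with a pseudocount of 0.1. Nanog and Dppa3, which mark later pluripotency, were listed at 0 in all 4 libraries, and of 18 pluripotency genes tested L1td1 was called, lower in p38i (25 and 20 against 38 and 37). Leaving out pre-p38i replicate 1 gave 3 lower pluripotency genes.

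Epithelial genes, whose rise the study followed with and without the inhibitor during induction, had low values on day 1. Cdh1, E-cadherin, was 3 and 4 in p38i, 13 and 13 in pre-p38i and 10 and 11 in DMSO (-1.65, SE 0.10, adjusted p = 2.2e-10), and was listed at 0 in all MEF libraries. Krt8, a keratin of simple epithelium, was 0 and 1 in p38i, 3 and 3 in pre-p38i and 2 and 2 in DMSO (-1.50, SE 0.22, adjusted p = 3.6e-05). Cldn3 was 0 and 1 against 1 and 1 and was not called (adjusted p = 0.423). Of 26 epithelial genes tested, 7 were lower (19.9% of all genes tested were) and 3 higher (8.25%). The lower ones included Ehf (0 and 1 against 4 and 4) and Epcam (1 and 0 against 2 and 2) beside Cdh1. Cldn4 was among the higher ones, at 5 and 5 against 0 and 1. The higher ones were 1 without pre-p38i replicate 2 or with a minimum mean of 5. At these values the arms differed by a few TPM.

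The mesenchymal factors Twist1 (180 and 175 in p38i, 191 and 199 in pre-p38i, adjusted p = 0.12) and Zeb1 (18 and 19 against 17 and 18, adjusted p = 0.67) were not called. Of 23 mesenchymal genes tested, 6 were lower in p38i (19.9% of all genes tested were) and 3 higher (8.25%). Prrx1, a factor of limb mesenchyme, was among the lower ones (120 and 115 against 193 and 201). The higher ones were Vim, Ddr2 and S100a4. Trp53, which encodes p53, was 144 and 150 in p38i, 167 and 183 in pre-p38i and 174 and 158 in DMSO (-0.25, SE 0.07, adjusted p = 0.00749), a call lost without p38i replicate 1 and without pre-p38i replicate 2. Of 39 genes of p53, its regulators and its targets, 10 were lower (19.9% of all genes tested were) and 5 higher (8.25%). Among them, the 6 genes of p53 and its regulators gave 1 lower and 2 higher. Without pre-p38i replicate 2, 5 of the 39 were lower. Pmaip1, which encodes the death protein Noxa, was 24 and 26 in p38i, 14 and 13 in pre-p38i and 38 and 34 in DMSO.

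Genes of mitosis and DNA replication that were called were lower in p38i by small amounts, with 1 exception, and most members were not called. Of 53 genes of mitosis and cytokinesis tested, 22 were lower (19.9% of all genes tested were), with a median of -0.24. Sept9 was the 1 higher gene (8.25%), and 30 were not called. With only the 4 libraries compared, 8 were lower. Cdc20, an activator of chromosome separation, was 104 and 118 in p38i, 146 and 167 in pre-p38i and 150 and 156 in DMSO (-0.49, SE 0.07, adjusted p = 4.8e-05). Anln, anillin of the cytokinetic ring, was 86 and 92 in p38i, 118 and 128 in pre-p38i and 132 and 111 in DMSO (-0.46, SE 0.11, adjusted p = 0.0029). Racgap1, of the central spindle, was 68 and 71 against 88 and 93. In these 3 genes DMSO lay beside pre-p38i. Against DMSO, 26 of the 53 genes were lower in p38i (12.6% of all genes tested were) and 27 not called. In pre-p38i 1 was lower (6.24%) and 2 higher (5.40%). In p38i-treated MEFs, 21 were higher than in untreated MEFs (9.73% of all genes tested were) and 1 lower (8.15%).

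Of 36 DNA replication genes, 11 were lower in p38i (19.9% of all genes tested were) and 25 not called, with a median of -0.21. With only the 4 libraries compared, 3 were lower. Lig1, the replicative ligase, was 46 and 48 in p38i, 68 and 65 in pre-p38i and 56 and 52 in DMSO (-0.49, SE 0.07, adjusted p = 4.0e-05), and it overlaps a low antisense gene. Mcm5, of the replicative helicase, was 54 and 68 in p38i, 83 and 93 in pre-p38i and 77 and 75 in DMSO. In p38i-treated MEFs 12 of the 36 were higher (9.73% of all genes tested were) and 24 not called. Genes of G1 control went both ways, with 4 higher (8.25% of all genes tested were) and 5 lower (19.9%) of 23 tested. The median was -0.09. Ccnd1, cyclin D1, was 783 and 788 in p38i, 651 and 655 in pre-p38i and 848 and 815 in DMSO, and Ccnd2 and E2f1 were also higher. Rb1, the retinoblastoma protein that holds back E2F, was 22 and 22 in p38i, 37 and 39 in pre-p38i and 34 and 32 in DMSO, and Ccnd3, Cdk2, Cdk6 and Cdkn1a were lower too.

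**Figure D4:**
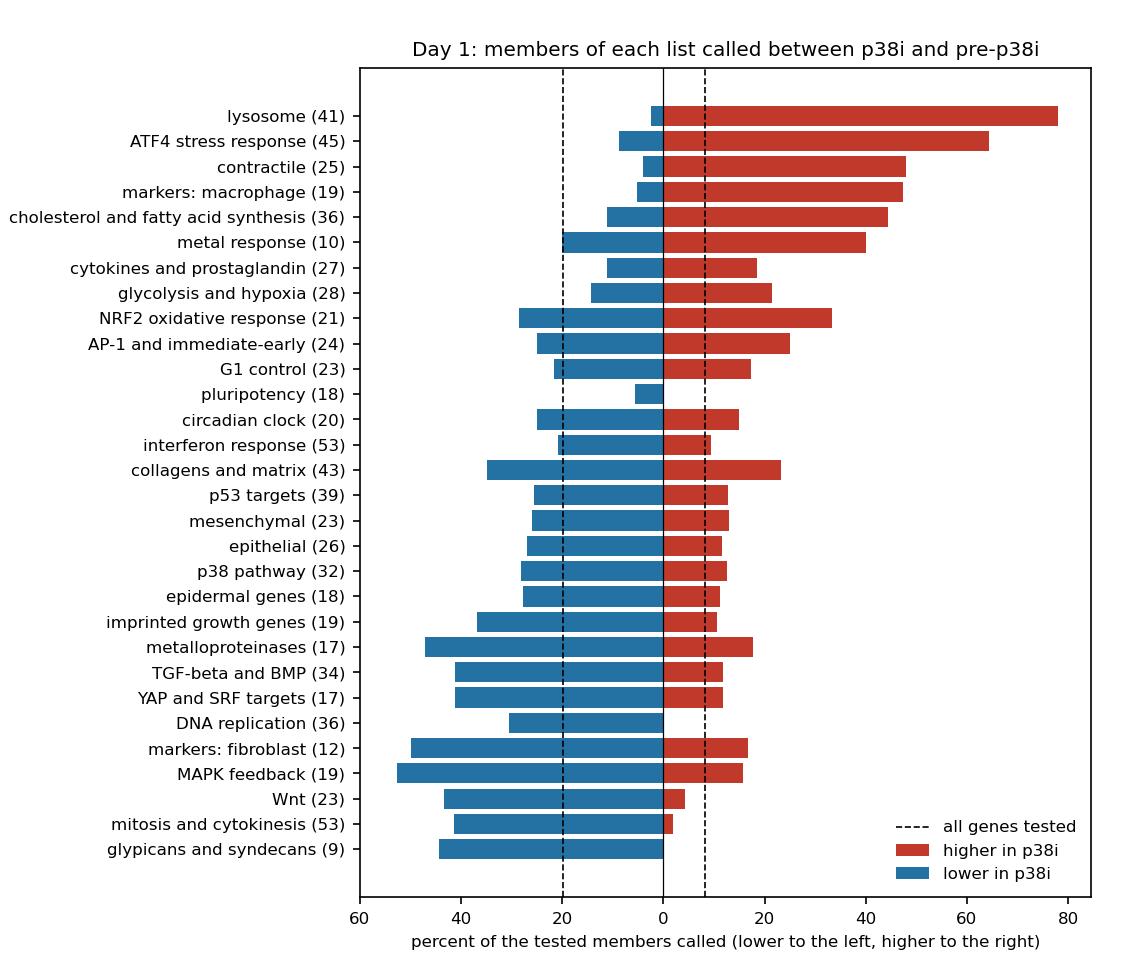
Share of the tested members of each gene list with at least 9 genes tested (number in parentheses) called higher (red, to the right) or lower (blue, to the left) in p38i than in pre-p38i on day 1, in percent of the members tested. Dashed lines give the shares over all 13230 genes, 8.25% higher and 19.9% lower, and among these lists the bars of the lysosomal, ATF4, contractile, macrophage and cholesterol lists run furthest past the line on the right.

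On later days the same arms were compared in libraries that day 1 did not use. Of the 1091 genes higher in p38i on day 1, 566 (51.9%) were called higher on day 3 and 637 (58.4%) on day 7, where 10.7% and 24.8% of all genes tested were higher. Of the 2638 lower genes, 1783 (67.6%) were called lower on day 3 and 1031 (39.1%) on day 7, where 31.4% and 29.5% of all genes were lower. By day 7, 707 genes that had been lower were called higher, with the change between days called too, and 134 that had been higher were called lower.

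The lists took separate courses. Lysosomal genes were higher in p38i for 33 of 41 on day 3 and 38 of 41 on day 7. ATF4 genes were lower more than higher later on, with 8 higher and 17 lower on day 3 and 7 and 19 on day 7. All genes tested leaned the same way, with 10.7% higher and 31.4% lower on day 3 and 24.8% and 29.5% on day 7. The mitosis list was lower for 49 of 53 on both days, and the DNA replication list for 32 of 36 on day 3 and 36 of 36 on day 7. Of 53 interferon response genes, 5 were higher (8.25% of all genes tested were) and 11 lower (19.9%) on day 1. Their median was 0.00 on day 1, and 51 were lower on day 3. Mmp10, which had been lower in p38i on day 1, stood at 11 and 10 in p38i and 3 and 2 in pre-p38i on day 7.

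**Figure D5:**
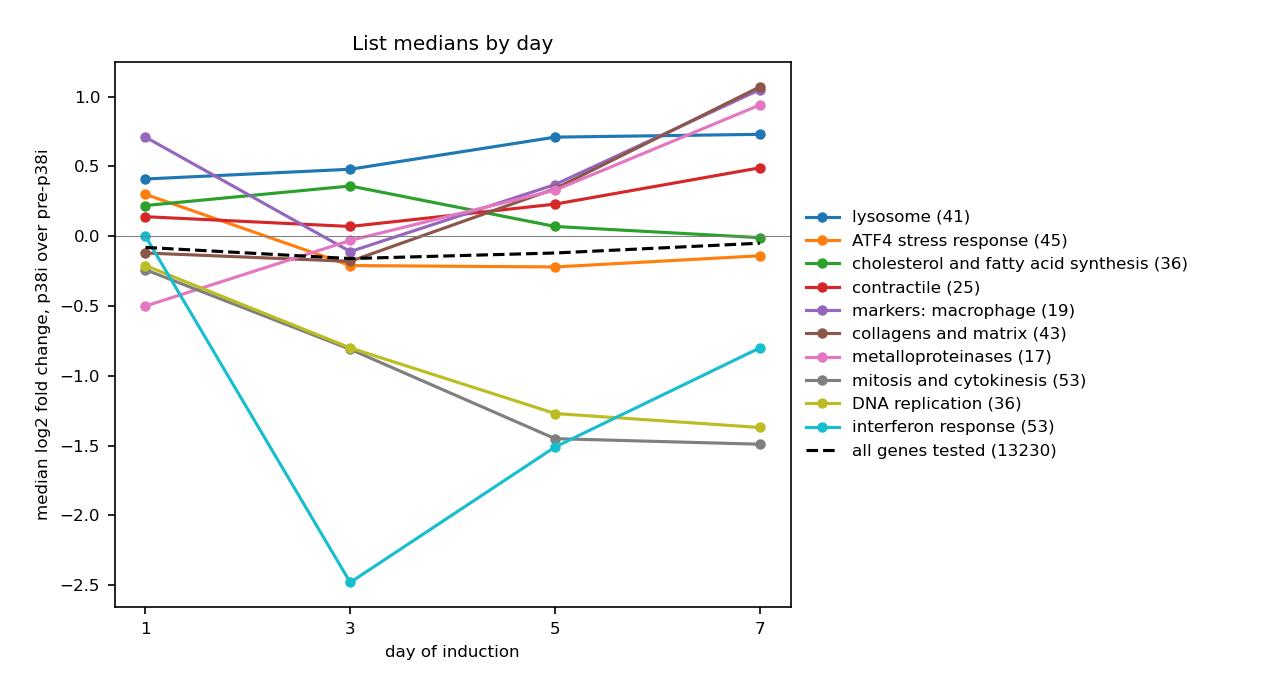
Median log2 fold change of p38i over pre-p38i (vertical axis) of 10 gene lists on days 1, 3, 5 and 7 of induction (horizontal axis), with the number of genes tested in parentheses and the median over all genes as a dashed line. The lysosomal median stays above 0 on each day, that of the ATF4 list goes from 0.30 on day 1 to -0.14 on day 7, and the interferon median goes from 0.00 on day 1 to -2.48 on day 3.

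Tested directly, the difference between p38i and pre-p38i changed between day 1 and day 7 for 5359 genes, or 40.5% of those tested.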

How the data were processed

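RNA was sequenced from whole cultures, 2 libraries in each of 14 groups. Per the labels, RNA was taken up in TRIzol and libraries were made from mRNA with a V2 kit; the study's methods name another kit and extraction. The submitters' processing notes name bcl2fastq, Bowtie2 2.2.5 and RSEM 1.3.0 and the builds mm10 and hg38; whether reads were counted by strand is not given in the sources used here. The authors deposited a table of 50600 genes by 28 libraries of whole numbers, handled as a score and read as TPM rounded down, with totals from 991287 to 992537. Depth is therefore unknown, no counting interval can be given, and count models were not used. Of the genes, 92.5% had the position of GENCODE M21 (GRCm38), and 27 gene names were missing or read as dates.

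Values were analysed as log2(value + 1) with limma 3.58.1 in R 4.3.3 (linear model over all 28 libraries, empirical Bayes with a mean-variance trend, two-sided), for the 13230 genes whose mean reached 1, with Benjamini-Hochberg adjustment over all of them and a threshold of 0.05. The script was tested on simulated data. Groups came from the labels. Alternatives were quantile normalization, a minimum mean of 5, no filter on low values, 0.1 as the pseudocount, no trend, only the libraries compared, a 2-fold minimum, a replicate block and leaving out each library. Near-identical copies were searched with BLAST 2.17.0 (at least 95% identity over 200 bases). Promoters are RefSeq windows from 250 bases before to 50 after each start, 32851 in all.

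The genes compared and the gene lists were chosen with earlier results of these data known. Genes named were the 14 largest rises and 14 largest falls among called genes whose mean over the 4 libraries reached 5, with no overlap between arms and a symbol that is not provisional, up to 4 called members per list and direction, and genes the study names. Other members named were chosen after their values were seen. A few results the rule names are not reported here.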

Additional observations from a re-analysis of the deposited data

Results flagged for a closer look

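The difference between p38i and pre-p38i changed from day 1 to day 7 for 5359 genes, by the test of that change in limma over all libraries. Among the genes named as falls, 5 had the opposite direction on day 7, with the change called.

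Gpc3, the glypican, was lower in p38i on day 1 and stood at 11 and 10 in p38i and 6 and 5 in pre-p38i on day 7, a change of 3.66 on the log2 scale (SE 0.31, adjusted p = 1.9e-08). Mmp10, stromelysin 2, stood at 11 and 10 in p38i and 3 and 2 in pre-p38i on day 7, a change of 3.93 (SE 0.29, adjusted p = 2.9e-09). Fbn2, fibrillin 2, stood at 10 and 11 against 5 and 5, a change of 2.97 (SE 0.22, adjusted p = 3.1e-09). In all 3 genes the p38i libraries were the lower ones on day 1 and the higher ones on day 7.

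Agtr1a, the angiotensin receptor, was still lower on day 3, at 26 and 22 in p38i and 81 and 66 in pre-p38i, and stood at 70 and 68 against 32 and 32 on day 7, a change of 3.44 (SE 0.16, adjusted p = 3.1e-12). Avil, advillin, was 407 and 401 against 888 and 860 on day 3 and 651 and 688 against 595 and 592 on day 7, a change of 2.52 (SE 0.08, adjusted p = 1.1e-14).

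A search for single libraries far from their group was not possible with 2 libraries a group.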

How the results depend on the processing

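Of the 224 genes named, tested and called, 120 were called under each of the 11 alternatives applied to single genes, 104 lost the call under at least 1, and 0 changed direction. The calls lost were 90 with only the libraries compared, 18 with a pseudocount of 0.1, 16 with quantile normalization and 30 to 36 when 1 library was left out.

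With only the libraries compared, 1838 genes were called, 573 higher and 1265 lower in p38i, a fit with fewer samples. With a 2-fold minimum, 604 were called, 150 higher and 454 lower, and 1969 was the number of genes whose p38i against pre-p38i difference changed between day 1 and day 7. Leaving out 1 library at a time gave 2626 to 2880 called genes, 776 to 863 higher and 1828 to 2038 lower, and 4697 to 4900 genes that changed between days; the arm with a lone library was assumed to vary like the other groups. The other alternatives gave 3212 to 3655 called genes. Same-numbered libraries did not deviate together over genes as a whole (r = 0.000461 between p38i and pre-p38i). This value cannot exclude a pairing with a small effect or one limited to few genes. With a replicate block, 3536 genes were called, 1040 higher and 2496 lower, and 5153 changed between days.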

Other observations

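Other gene lists moved in both directions on day 1. Of 21 genes of the NRF2 oxidative response, 7 were higher (8.25% of all genes tested were) and 6 lower (19.9%) in p38i. Srxn1, which repairs peroxiredoxins, was 217 and 228 in p38i, 110 and 108 in pre-p38i and 163 and 157 in DMSO. Hmox1, heme oxygenase 1, was 250 and 247 in p38i, 122 and 126 in pre-p38i and 172 and 185 in DMSO. The factor Nfe2l2 itself was 133 and 143 in p38i and 206 and 212 in pre-p38i, and Gsta4, a glutathione transferase, was 273 and 290 in p38i, 414 and 422 in pre-p38i and 410 and 418 in DMSO. The order was p38i above DMSO above pre-p38i for Srxn1 and Hmox1.

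Of 27 cytokine and prostaglandin genes, 5 were higher (8.25% of all genes tested were) and 3 lower (19.9%). Csf1, the growth factor of macrophages, was 61 and 61 in p38i, 31 and 31 in pre-p38i and 57 and 51 in DMSO, and Ccl7, a chemokine, was 105 and 113 in p38i, 185 and 183 in pre-p38i and 205 and 210 in DMSO. Of 5 neural markers tested, Tubb3, a tubulin of neurons, was the 1 higher in p38i, at 344 and 383 in p38i, 104 and 114 in pre-p38i and 243 and 222 in DMSO. Nefl, a neurofilament that overlaps Nefm on the other strand, was 72 and 70 in p38i, 171 and 170 in pre-p38i and 158 and 154 in DMSO.

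The proliferins Prl2c2 and Prl2c3 are 99.5% identical over 842 bases and were summed. The sums were 61 and 57 in p38i, 28 and 22 in pre-p38i and 121 and 139 in DMSO, with DMSO above both arms.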
